A study of Mus musculus with 8 samples.

Results

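T cells recognise peptides on MHC molecules through a T cell receptor whose chains, among them those with the constant regions Trac and Trbc2, signal through the CD3 chains Cd3e, Cd3g and Cd3d. Cytotoxic T cells carry the co-receptor CD8 and kill target cells with granzymes and perforin, whereas helper and regulatory T cells carry CD4, and regulatory T cells are defined by the transcription factor Foxp3. Few T cells are found in the healthy brain parenchyma, and in glioma they enter from the blood and often carry inhibitory receptors such as PD-1 (Pdcd1) and CTLA-4 (Ctla4). The cells described here were chosen by transcripts of these receptor genes. From each tumour-bearing library the 1000 barcodes with the most UMIs (unique molecular identifiers, which count mRNA molecules) and at least 500 detected genes were kept. A cell was taken as a T cell when at least 2 of Cd3e, Cd3g, Cd3d, Trac and Trbc2 were detected, when the myeloid genes Lyz2 and C1qa together gave at most 30 UMIs per 10000, and when the tumour genes Col9a1, Lect1 and Rhox5 together gave fewer than 10. This selected 205 of the 5993 cells that passed in the 6 tumour-bearing libraries.

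The study profiled GL261 tumours, grown from a C57BL/6 glioma line, and naive brain by Drop-seq in wild-type (WT) and Acod1 knock-out (KO) mice, whose strain is C57BL/6 in the labels and C57BL/6N in the study's methods, with 8 libraries, 1 for each pair of genotype (WT or KO) and condition (naive, early, intermediate or late). Acod1 encodes the enzyme that makes itaconate, and the KO allele carries an Irg1 tm1a insertion cassette between exons 3 and 5. Tumours were started with 500 GL261 cells per tumour-bearing mouse, placed in the right striatum by the labels and in the frontal cortex by the study's methods, and were taken at 5 to 10 mm3 (early), 20 to 25 mm3 (intermediate) and 30 to 35 mm3 (late). Each tumour-bearing library came from 1 mouse and each naive library from 2 mice, mice were perfused, and no sort was applied. The early mice were a WT female and a KO male, the intermediate mice a WT male and a KO female, and the late mice both male, so that genotype and sex cannot be told apart at the first 2 stages. The age of the mice is not given in the sources used here. The tables held between 6251385 and 9950713 UMIs in the tumour-bearing libraries. Acod1, the targeted gene, gave 185 UMIs in the cells of the library labelled WT early and 38 in those of KO early, but 14 in WT late and 43 in KO late, so that its count did not separate the labels. T cells held 0 Acod1 UMIs. Libraries shared at most 2 barcodes per pair, none of them between T cells.

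Most of the chosen cells carried more receptor genes than the rule asked for. All 5 receptor genes were detected in 96 of the 205 cells, 4 in 59 cells, 3 in 32 cells and the required 2 in 18 cells. Just outside the rule, 41 cells without myeloid or tumour signal had 1 of the 5 genes. A further 53 cells had 2 or more of the genes but went over the myeloid limit (12 cells) or the tumour limit (47 cells). In the KO late library 32 such cells were over the tumour limit, 6 of them also over the myeloid limit, and 37 T cells were kept, with the nearest kept cell at 9.12 and the nearest removed cell at 10.7 tumour gene UMIs per 10000. Depth per T cell was moderate, with medians of 2303 UMIs in WT early, 1877 in KO early, 3215 in KO intermediate and 2119 in KO late, and single cells between 1100 and 101449 UMIs.

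Transcripts of other cell types were counted in the T cells. The rule itself held down Lyz2 and C1qa among the myeloid markers and Col9a1, Lect1 and Rhox5 among the tumour cell markers, so that low sums of these lists are in part set by the choice of cells. The B cell genes Cd79a, Cd79b and Ms4a1 gave 1 UMI in all. Natural killer (NK) genes were uneven in the 4 libraries with 31 or more T cells. A UMI of any of the 5 NK markers was found in 47 of 93 T cells of WT early and 3 of 31 of KO early. The same held for 19 of 42 in KO intermediate and 10 of 37 in KO late. In WT early, 45 cells carried Klre1, whereas Ncr1, a defining NK receptor, was at 0 in 4 of the 5 libraries with T cells. The summed level of the 7 microglia and macrophage markers ran from 219.7 to 428 CPM (UMIs per 1000000 UMIs of the summed T cells) in the same 4 libraries, with 5 or 6 of the 7 detected. The summed tumour cell markers ran from 58.9 to 383 CPM and were highest in KO late. In KO intermediate, 2 barcodes with endothelial transcripts held 38.9% of all T cell UMIs of that library, including 719 of its 745 UMIs of Igfbp7 and 424 of its 511 UMIs of Cd74. In WT early, 2 barcodes with oligodendrocyte transcripts held 4.95% of the T cell UMIs. The levels of KO intermediate that move by over 1.5 times without its 2 endothelial barcodes are also given without them, which was added after the data were seen. CD8-type and CD4-type cells gave 25 called genes with and without the 4 barcodes. The 2 barcodes of KO intermediate carried both co-receptors and were in neither subset. The removal therefore changed only the CD8-type cells of WT early, from 58 to 56, and does not check the endothelial barcodes.

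Many T cells were counted in both early tumours and in the KO tumours of every stage, and at most 2 in each of the later WT tumours. Shares refer to the cells without the tumour gene signal. In WT early, 93 of 695 such cells were T cells (13.4%, exact 95% binomial interval 10.9% to 16.1%), and in KO early 31 of 325 (9.54%, 6.57% to 13.3%). KO intermediate had 42 of 393 (10.7%, 7.81% to 14.2%) and KO late 37 of 398 (9.30%, 6.63% to 12.6%). By contrast, WT intermediate had 0 of 79 (0%, 0% to 4.56%), and WT late had 2 of 249 (0.803%, 0.0974% to 2.87%). The naive brains held 1 T cell among 976 cells (WT) and 0 among 889 (KO, 0% to 0.414%). Intervals and limits here and below cover counting error only.

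**Figure D1:**
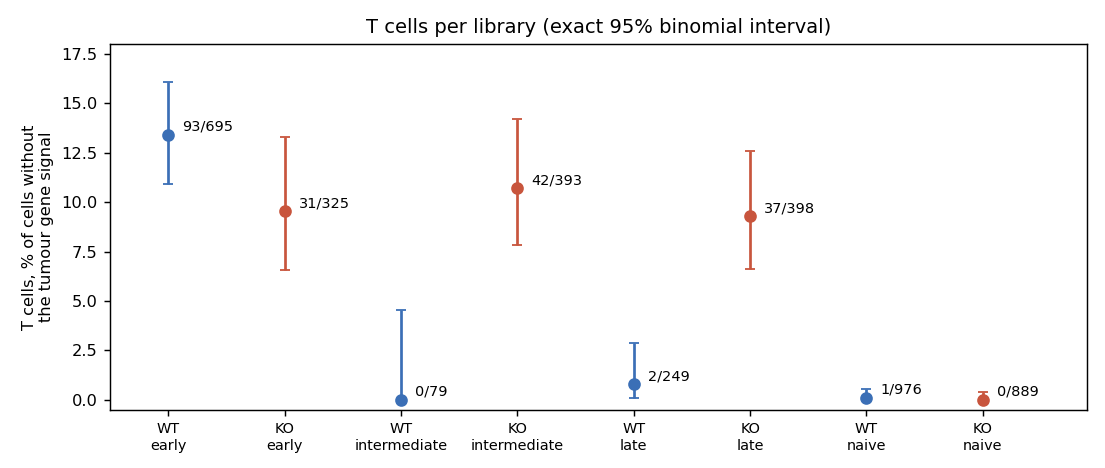
T cells as a percentage of the cells without the tumour gene signal in each of the 8 libraries, with exact 95% binomial intervals. The 3 KO tumours and the WT early tumour lie between 9.30% and 13.4%, and the WT intermediate, WT late and naive libraries lie under 1%.

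Over the 3 stages the mean share was 9.84% in KO and 4.73% in WT libraries, a difference of 5.11 percentage points that did not pass the exact two-sided permutation test (p = 0.400, n = 3 and 3, where the smallest p possible is 0.1). The difference came from the 2 later stages and ran the other way at the early stage. Among all cells that passed, tumour cells included, the means were 3.67% and 3.17%, a difference of 0.497 percentage points (exact permutation p = 1.00, n = 3 and 3). Depth and the limit to 1000 barcodes also differed between libraries. In WT intermediate the barcode with the fewest UMIs that was kept had 2220 UMIs, against 1074 to 1243 in the other 5 libraries, and 921 of its 1000 cells carried the tumour signal. Below that limit 4 further barcodes of WT intermediate and 0 of WT late had at least 500 detected genes and met the rule. In WT early 31 did, in KO early 14, in KO intermediate 16 and in KO late 10. Without the minimum of 500 genes, 4 barcodes of WT intermediate, 0 of WT late, 82 of WT early, 31 of KO early, 53 of KO intermediate and 15 of KO late met the other limits. The part of depth in the difference between genotypes was not tested further.

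The genes that set these cells apart from the other cells without the tumour signal included receptors and effectors of activated T cells. By the ratio of summed CPM, and leaving aside the genes of the rule (Cd3d 598, Cd3g 379.7, Cd3e 318, Trac 283 and Trbc2 185), the leading genes were the CD8 chains Cd8b1 (454) and Cd8a (224), the signalling adaptor Lat (304) and the costimulatory receptor Icos (299.6). They were followed by Pdcd1 (226), the chemokine receptor Cxcr6 (185), Ctla4 (173), the cytokine interferon gamma (Ifng, 138) and the adhesion receptor Cd2 (117). The costimulatory receptors Tnfrsf4 (86.3) and Tnfrsf18 (66.3), the GTPases Gimap3 (66.4) and Gimap7 (63.0), the kinase Lck (52.7) and the granule protein Nkg7 (50.4) completed the first 20. These ratios are a description without a test, since the cells were chosen on genes that vary together with them. Icos was detected in 144 of the 205 cells (70.2%), Ctla4 in 142 (69.3%), Pdcd1 in 110 (53.7%) and Nkg7 in 181 (88.3%).

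The receptor genes Trac and Cd3g belong to the rule, so that their levels are a description of the chosen cells. Trac stood at 1673 CPM in WT early, 1197 in KO early, 1253 in KO intermediate (2009 without its 2 endothelial barcodes) and 1463 in KO late. Cd3g stood at 1139.9, 1121, 578 and 866 CPM in the same order. The low value of KO intermediate rose to 893 CPM without those barcodes. The co-receptor levels, which the rule did not use, differed between libraries. Cd8a stood at 683, 365, 319.8 and 530.2 CPM, with KO intermediate at 513 without its endothelial barcodes, so that WT early was highest either way. Cd8b1 stood at 981, 629.8, 223 and 597 CPM, with KO intermediate at 359 without them. Cd4 was highest in KO early and lowest in KO late, at 239, 466, 165 and 114 CPM, with KO intermediate at 259 without them. Trbc1 and Trbc2 are the 2 constant regions of the beta chain, of which a receptor uses 1. Both were detected in 106 of 203 cells, Trbc2 in 181 and Trbc1 in 115, and since the 2 sequences are near identical their reads may be split between them.

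Markers of naive and memory T cells ranged from rare to frequent. Tcf7, a transcription factor of naive and stem-like T cells, was detected in 7 of 93 cells of WT early, 3 of 31 of KO early, 6 of 42 of KO intermediate and 1 of 37 of KO late. Lef1, another such factor, was detected in 3, 1, 6 and 2 cells in that order. Il7r, the receptor chain for interleukin 7 of naive and memory T cells, was frequent, in 46, 6, 27 and 12 cells. Its level was 447, 151, 284 and 174 CPM, and 428 CPM in KO intermediate without the endothelial barcodes. Ccr7, a lymph node homing receptor, was detected in 17, 3, 13 and 6 cells, at 236, 37.8, 162 and 73.8 CPM. Among inhibitory receptors, Ctla4 stood at 631 CPM in WT early, 542 in KO early, 688 in KO intermediate and 671 in KO late. Without the endothelial barcodes KO intermediate was highest for Ctla4, at 1094 CPM (exact 95% Poisson interval 950.3 to 1254). Pdcd1 stood at 499, 328, 242 and 181 CPM, with KO intermediate at 375 without them. Havcr2 (TIM-3) reached 159, 126, 58.1 and 195 CPM, with KO intermediate at 95.2 without them, while Lag3 gave only 2 to 10 UMIs per library. Tox, a transcription factor linked to T cell exhaustion, was found together with Pdcd1 in 29 of the 110 cells with Pdcd1.

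**Figure D2:**
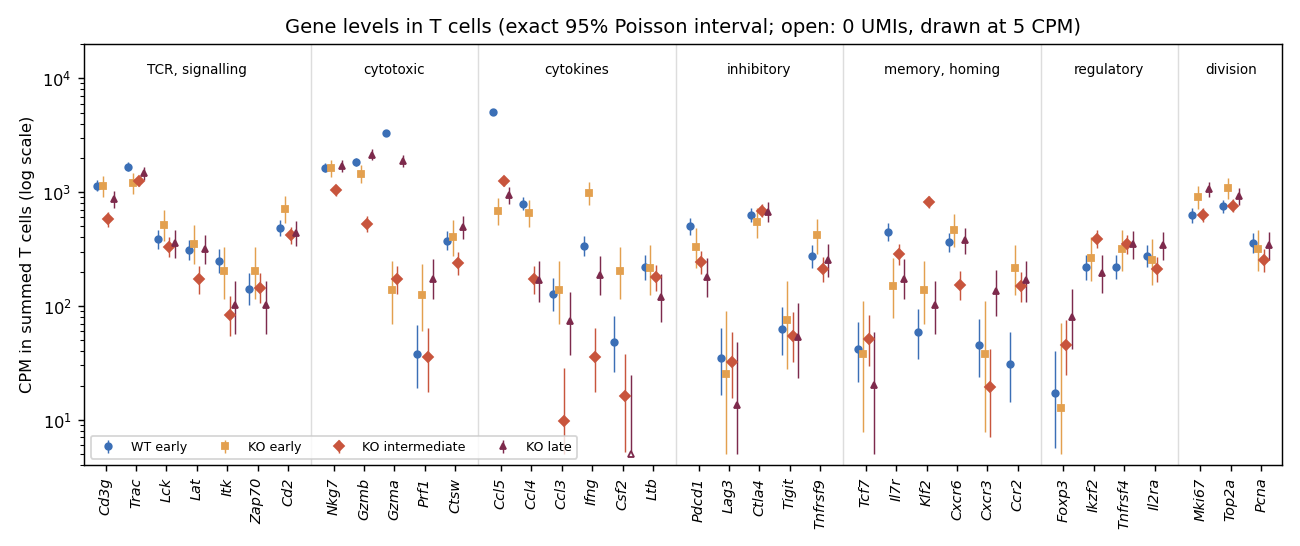
CPM of receptor and signalling, effector, inhibitory, memory and homing, regulatory and division genes in the summed T cells of WT early, KO early, KO intermediate and KO late, on a log axis with exact 95% Poisson intervals and open symbols for 0 UMIs. All T cells are included, the 2 endothelial barcodes of KO intermediate too, and Trac and Cd3g belong to the rule that chose the cells. Gzma ranges from 139 to 3312 CPM and Ccl5 from 680.2 to 5062 CPM over the 4 libraries.

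Effector genes varied between libraries. Ccl5, a chemokine of cytotoxic T cells, stood at 5062 CPM in WT early, 680.2 in KO early, 1247 in KO intermediate and 939.6 in KO late, so that WT early lay above the 3 KO libraries. Ccl5 was found in 61 of 93, 16 of 31, 28 of 42 and 17 of 37 T cells. It is not confined to T cells, since 37.0% to 44.4% of the cells high in Lyz2 and C1qa had a Ccl5 UMI in these 4 libraries, whereas at most 4.65% of oligodendrocyte-marker cells did. Gzma, which encodes granzyme A, stood at 3312 CPM in WT early, 139 in KO early, 171 in KO intermediate and 1872 in KO late. The KO late level came from 2 cells, 1 of which held 267 of the 279 UMIs. In WT early 27 of 93 cells carried Gzma, against 3 of 31 in KO early and 5 of 42 in KO intermediate. At most 1.82% of the oligodendrocyte-marker cells and 1.41% of the cells high in Lyz2 and C1qa had a UMI of it in any tumour-bearing library. Gzmb, granzyme B, stood at 1843, 1449, 527 and 2134 CPM, and KO intermediate, the lowest, at 841 CPM without its endothelial barcodes.

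Ifng followed another order. It stood at 339.5 CPM in WT early, 983 in KO early, 35.5 in KO intermediate and 188 in KO late, with 25 of 93, 14 of 31, 5 of 42 and 12 of 37 T cells positive. KO intermediate was also lowest without its endothelial barcodes, at 58.2 CPM (exact 95% Poisson interval 29.0 to 104). No oligodendrocyte-marker cell had an Ifng UMI. Cytokines of other helper programmes were scarce, with 0 UMIs of Il17a in all 4 libraries and 0 or 1 UMI of Il2 per library. Csf2, the growth factor GM-CSF, gave 48.5, 202, 16.2 and 0 CPM from at most 16 UMIs.

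The composition of the T cells differed between the WT early library and the KO libraries. Cells were called CD8-type when Cd8a or Cd8b1 was detected without Cd4, and CD4-type for the reverse. In WT early 58 of 93 T cells were CD8-type (62.4%, exact 95% binomial interval 51.7% to 72.2%) and 16 CD4-type (17.2%, 10.2% to 26.4%). KO early had 8 of 31 CD8-type (25.8%, 11.9% to 44.6%) and 13 CD4-type (41.9%, 24.5% to 60.9%). KO intermediate had 13 CD8-type and 15 CD4-type of 42 cells (31.0% and 35.7%), and KO late 13 and 9 of 37 cells (35.1% and 24.3%). The 4 libraries did not overlap between genotypes in either share, but with 1 WT library the exact two-sided permutation test cannot go below p = 0.5. This exact permutation test gave p = 0.5 for a CD8-type share lower by 31.7 percentage points in KO and p = 0.5 for a CD4-type share higher by 16.8 points (n = 3 and 1). Depth changed the second value more than the first. With every T cell thinned to 1000 UMIs the CD8-type shares were 59.1% in WT early, 25.8% in KO early, 26.2% in KO intermediate and 35.1% in KO late, and the CD4-type shares were 11.8%, 22.6%, 16.7% and 5.41%, so that KO late then lay under WT early. No oligodendrocyte-marker cell had a UMI of Cd4, Cd8a or Cd8b1 in these libraries.

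Cells with transcripts of both co-receptors and cells with neither were present in every one of these libraries. Both were detected in 6, 1, 7 and 2 cells, and neither in 13, 9, 7 and 13 cells of WT early, KO early, KO intermediate and KO late. Dividing cells, counted by at least 2 of 12 mitotic genes such as Mki67 and Top2a, made up 26 of 93 T cells in WT early (28.0%, 19.1% to 38.2%), 18 of 31 in KO early (58.1%, 39.1% to 75.5%), 20 of 42 in KO intermediate (47.6%, 32.0% to 63.6%) and 24 of 37 in KO late (64.9%). The KO mean was 28.9 percentage points higher, with the smallest p this design allows (exact two-sided permutation p = 0.5, n = 3 and 1). At 1000 UMIs per cell the shares were 21.5%, 54.8%, 33.3% and 45.9%. In the same order 1.74%, 9.76%, 7.84% and 11.6% of oligodendrocyte-marker cells met that definition. Of the cells high in Lyz2 and C1qa 17.4%, 28.6%, 19.1% and 27.5% did. WT early was thus lowest in both kinds of background cells too. The part of this background in the shares of dividing T cells was not tested.

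Foxp3-positive T cells varied between libraries, and cells with the gamma-delta gene Trdc were few. Foxp3 was detected in 5 of 93 T cells of WT early (5.38%), 1 of 31 of KO early (3.23%), 9 of 42 of KO intermediate (21.4%) and 6 of 37 of KO late (16.2%), against 0.870% of oligodendrocyte-marker cells in WT early and 0 in the other 3 libraries. The KO mean was higher by 8.25 percentage points (exact permutation p = 1.00, n = 3 and 1), and at 1000 UMIs per cell the difference was -0.118 points. All 21 Foxp3-positive cells also carried Ctla4, 18 carried Ikzf2 (the transcription factor Helios), 17 carried Tnfrsf4 and 14 carried Cd4. Over all 203 T cells of the 4 libraries, Ctla4 was detected in 141, Ikzf2 in 61, Tnfrsf4 in 82 and Cd4 in 69. Trdc, the constant region of the gamma-delta receptor, was detected in 0, 1, 4 and 0 cells, and 4 of these 5 cells also carried Trac.

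**Figure D3:**
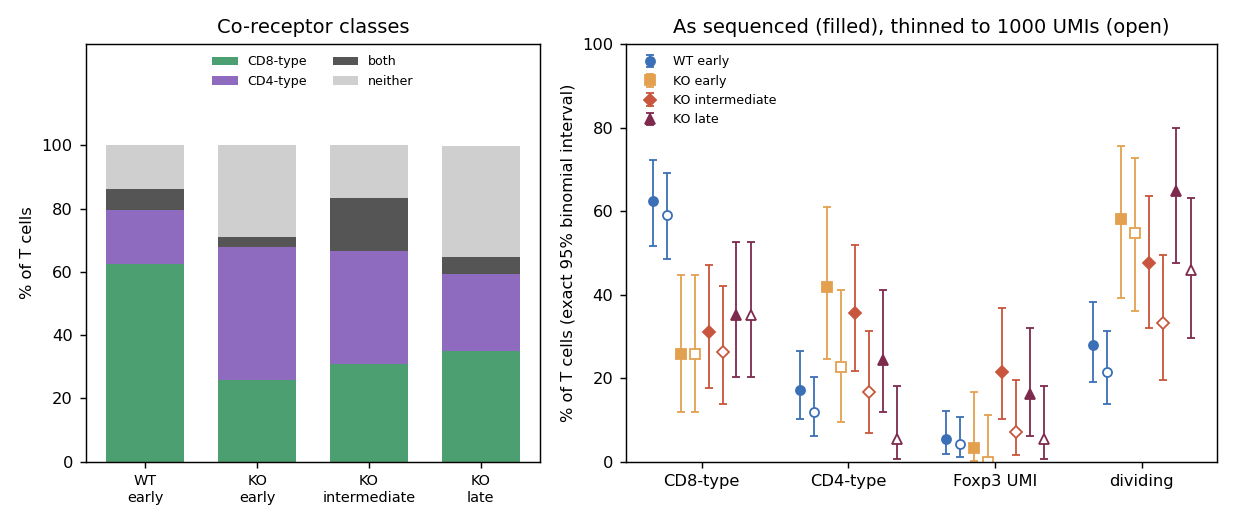
Left, T cells of WT early, KO early, KO intermediate and KO late divided into CD8-type, CD4-type, both and neither, in percent. Right, percent of T cells that were CD8-type, CD4-type, Foxp3-positive or dividing, with exact 95% binomial intervals, as sequenced (filled) and at 1000 UMIs per cell (open). CD8-type cells made up 62.4% in WT early and 25.8% to 35.1% in the KO libraries.

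Within libraries, CD8-type and CD4-type cells were then compared by edgeR's quasi-likelihood test on UMIs summed per library and subset, with the library as a block. The 8 sums held 8 to 58 cells and 17385 to 180281 UMIs. Of 1430 genes tested, 12 were higher in CD8-type cells (0.839%) and 13 were lower (0.909%) at a Benjamini-Hochberg adjusted p of 0.05, 25 in all, against 8 without KO intermediate and 12 without WT early. Cd8a, Cd8b1 and Cd4 defined the subsets and were not tested. CD8-type cells carried the granzyme Gzma, the chemokine Ccl5 and receptors of the NK group, while CD4-type cells carried Tnfrsf4, Icos, Ikzf2, Ifng and regulators of the transcription factor NF-kB.

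Gzma, on chromosome 13 of GRCm38 from 113093825 to 113100981 (GENCODE M21), had the largest fold change toward CD8-type cells. Its sums held 955 UMIs in CD8-type and 0 in CD4-type cells of WT early, 10 and 1 in KO early, 3 and 0 in KO intermediate, and 279 and 0 in KO late. CD8-type cells were thus above CD4-type cells in 4 of 4 libraries, with 267 of the KO late UMIs in 1 cell. Over the 4 libraries this was 1247 against 1 UMI, a ratio of CPM of 742 with an exact 95% binomial interval of 133 to 29322 (adjusted p = 5.90e-07 by edgeR with Benjamini-Hochberg adjustment).

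Ccl5 and the surface genes Ly6c2 and Ms4a4b followed Gzma. Ccl5, on chromosome 11 from 83525778 to 83530518, stood at 6268 CPM in CD8-type and 110.3 CPM in CD4-type cells of WT early, at 1323 and 162 in KO early, at 2659.7 and 515 in KO intermediate, and at 432 and 269 in KO late. The difference was smallest in KO late and gave a log2 fold change of 2.94 ± 0.52 (SE, adjusted p = 0.00483 by edgeR with Benjamini-Hochberg adjustment). Ly6c2, a surface antigen of effector and memory CD8 T cells, was 4.34 ± 0.57 higher on the log2 scale (SE, adjusted p = 0.000545 by edgeR), with 232 UMIs against 9. Ms4a4b, a membrane protein of T cells, stood at 1742, 4947, 1329.9 and 1808 CPM in CD8-type against 728, 486, 336 and 289.8 CPM in CD4-type cells (log2 fold change 2.27). The lowest CD8-type value lay above the highest CD4-type value.

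The NK-type receptors Klre1, Klrd1 and Klrk1 were also higher in CD8-type cells, with log2 fold changes of 2.77, 1.90 and 1.90. Klrd1 (CD94) was found in 74 of 92 CD8-type and 21 of 53 CD4-type cells, but in KO early its level was 748 against 509 CPM, the narrowest gap of the 4 libraries. The mitotic genes Tubb5 (1.23) and Top2a (0.95) rose as well. Of 12 mitotic genes 8 could be tested and 1, Top2a, passed, with a median of 1.05 against -0.01 over all genes tested.

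Among genes higher in CD4-type cells was Tnfrsf4 (OX40), a costimulatory receptor of activated and regulatory CD4 T cells, on chromosome 4 from 156013843 to 156016612. It stood at 94.3 CPM in CD8-type and 441 CPM in CD4-type cells of WT early, 0 and 393 in KO early, 182 and 989.5 in KO intermediate, and 48.0 and 704 in KO late. Every CD4-type sum lay above every CD8-type sum, with a log2 fold change of -2.74 ± 0.37 (SE, adjusted p = 0.000574 by edgeR with Benjamini-Hochberg adjustment). Icos was lower in CD8-type cells by a log2 fold change of -1.18, Ikzf2 by -1.75 and the transcription factor Maf by -2.81. Of the 9 genes listed for regulatory T cells, 6 could be tested and 2, Tnfrsf4 and Ikzf2, were lower in CD8-type cells. The list's median was -1.21 against -0.01 over all genes tested. Il2ra (-1.11, adjusted p = 0.253), Tnfrsf18 (-1.28, adjusted p = 0.186) and Ctla4 (-0.58, adjusted p = 0.388) did not pass edgeR's test.

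Ifng was higher in CD4-type than in CD8-type cells, although it is a cytokine of both. The gene lies on chromosome 10 from 118441046 to 118445892. It stood at 1147 CPM in CD4-type and 183 CPM in CD8-type cells of WT early, 1642 and 345 in KO early, 79.2 and 54.7 in KO intermediate, and 145 and 96.0 in KO late. The order held in 4 of 4 libraries but rested mainly on the early ones, since the later sums held 3 to 7 UMIs each (log2 fold change -2.00 ± 0.37 SE, adjusted p = 0.00666 by edgeR with Benjamini-Hochberg adjustment). The number of positive cells was less skewed, with 25 of 92 CD8-type and 18 of 53 CD4-type cells. The NF-kB regulators Nfkbia and Nfkbiz were lower in CD8-type cells by log2 fold changes of -2.04 and -2.88. Nfkbia stood at 1633, 1827, 1742 and 1594 CPM in CD4-type cells, a narrow range, against 444, 1150.4, 237 and 208 CPM in CD8-type cells. Igfbp7 (-4.30), Serpine2 (-4.03) and Neb (-3.34), none of them a gene known for CD4 T cells, also passed. Their CD4-type UMIs lay in 17, 11 and 20 of the 53 cells, and at most 18, 12 and 20 UMIs of Serpine2, Igfbp7 and Neb fell in 1 cell.

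**Figure D4:**
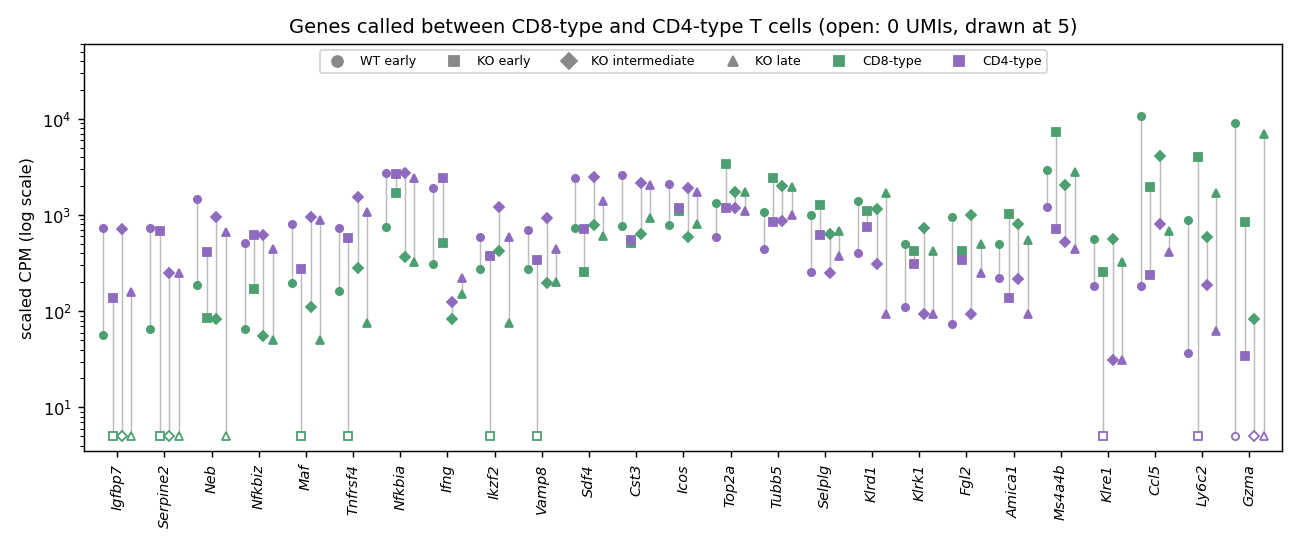
Scaled CPM (log axis) of the genes that passed the comparison of CD8-type with CD4-type T cells, with 1 point per library and subset, lines that join the subsets of a library, and open symbols for 0 UMIs, drawn at 5. For Gzma, the CD4-type sums hold 0 or 1 UMI, and for Tnfrsf4 every CD4-type sum lies above every CD8-type sum.

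Promoters of the genes of this comparison are shown because the CD8-type programme is known to depend on RUNX factors and Nfkbia is a known target of NF-kB. Of the 12 genes higher in CD8-type cells 8 matched a RefSeq promoter (GRCm38.p6, 250 bases before to 50 after the start), and 4 of the 8 held the RUNX motif TGTGGT on either strand, against 16.8% of 32851 promoters of the same length. Of the 13 genes lower in CD8-type cells 8 matched, of which 0 held TGTGGT and 1, Nfkbia, held the NF-kB motif, spelled as GGG, any 2 bases and TTTCC, against 1.63% of promoters. The T-box motif GGTGTG was in 0 promoters of either group, against 19% of promoters. The 8 genes higher in CD8-type cells had 10 promoters and the 8 lower ones 11. A gene counted when any of its promoters matched, whereas the background is a share of single promoters, so that the units differ. These matches are a description and no test was made. Capitals mark the motif as read on the strand of the gene, so that a match on the other strand appears as ACCACA or GGAAATTCCC. The windows are those of Gzma at chr13:113100932-113101231 (minus strand), Klrk1 at chr6:129623815-129624114 (minus strand), Ly6c2 at chr15:75111922-75112221 (minus strand) and Nfkbia at chr12:55492598-55492897 (minus strand), each written 5′ to 3′.
Gzma: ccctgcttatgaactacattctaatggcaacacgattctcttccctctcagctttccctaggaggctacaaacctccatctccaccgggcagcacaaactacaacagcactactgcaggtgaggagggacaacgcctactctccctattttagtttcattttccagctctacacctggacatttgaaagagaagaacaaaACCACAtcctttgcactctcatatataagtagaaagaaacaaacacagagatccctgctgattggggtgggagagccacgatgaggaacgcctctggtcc
Klrk1: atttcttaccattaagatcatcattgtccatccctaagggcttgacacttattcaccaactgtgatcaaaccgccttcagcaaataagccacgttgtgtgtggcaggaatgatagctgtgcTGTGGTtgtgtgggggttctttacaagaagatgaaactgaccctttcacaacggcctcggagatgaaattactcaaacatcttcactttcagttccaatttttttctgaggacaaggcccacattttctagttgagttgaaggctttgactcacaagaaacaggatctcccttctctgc
Ly6c2: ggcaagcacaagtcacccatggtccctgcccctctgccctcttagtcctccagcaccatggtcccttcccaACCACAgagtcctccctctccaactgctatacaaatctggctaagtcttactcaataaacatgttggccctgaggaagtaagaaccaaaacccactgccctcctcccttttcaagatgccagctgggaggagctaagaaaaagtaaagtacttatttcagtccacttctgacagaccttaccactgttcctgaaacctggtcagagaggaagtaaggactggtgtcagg
Nfkbia: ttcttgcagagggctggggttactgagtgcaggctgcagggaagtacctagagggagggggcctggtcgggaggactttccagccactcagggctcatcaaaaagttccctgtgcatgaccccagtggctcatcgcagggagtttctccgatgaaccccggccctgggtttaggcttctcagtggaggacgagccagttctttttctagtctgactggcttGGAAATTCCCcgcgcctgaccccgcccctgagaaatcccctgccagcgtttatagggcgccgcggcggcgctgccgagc

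T cells were next compared with the lymphoid cells most like them, the CD3-negative cells with NK genes, which passed the same limits, lacked all 5 receptor genes and had at least 2 of 7 NK genes. Both groups were set by transcripts of the same cells. There were 33 of the latter, 3 to 10 per library, and they were not a pure class, since Ncr1 was found in 8, Tyrobp in 27 and Cd74 in 13 of them. The 3 KO libraries had at least 5 cells of both kinds. Of 1329 genes tested there, 10 were higher in T cells (0.752%) and 12 were lower (0.903%) by edgeR with the library as a block and Benjamini-Hochberg adjustment. The genes of both rules were not tested.

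T cells were higher in activation receptors. Icos gave a log2 fold change of 5.25 ± 0.76 (SE, adjusted p = 0.00401 by edgeR), with 1346, 921 and 1341 scaled CPM in the T cells of KO early, intermediate and late against 0, 0 and 99.5 in the other cells. Ctla4 (4.17), Tnfrsf4, Cxcr6, Cd8a and Cd8b1 were also called. The last 4 were at 0 UMIs in all 3 sums of the other cells, so that they entered the test through the T cells alone. The other cells were chosen for a lack of receptor transcripts and for NK genes. Low levels of T cell genes and high levels of NK cell genes in them are therefore in part set by that choice. Ly6a (2.71), an activation antigen, and the proliferation gene 2810417H13Rik (3.78) rose too. The CD3-negative cells were higher in genes of NK cells. Xcl1, a chemokine of NK cells, stood at 4467, 4924 and 2886 scaled CPM in them against 76.9, 296 and 129 in T cells (log2 fold change -4.60 ± 0.39 SE, adjusted p = 0.000106 by edgeR). The signalling adaptors Tyrobp (-4.36) and Fcer1g (-3.00), the pore protein Prf1 (-2.95), the granzyme Gzma (-3.13), the granzyme inhibitor Serpinb9 (-2.42) and the Ly49 receptors Klra4 (-5.46) and Klra7 (-3.21) were lower in T cells. Gzmb did not pass, and neither did the mitotic genes, of which 7 were tested with a median of 2.84 against 0.06 over all genes.

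The early stage was the only one with more than 2 T cells in both genotypes, with 31 cells in KO and 93 in WT, 1 mouse each, so that the difference has no replicate check. By the study's volume measurements the KO early tumour was also larger than the WT early tumour. Among 591 genes with at least 100 UMIs in both together, 22 were over 2-fold higher in KO early (3.72%) and 24 over 2-fold lower (4.06%). The listed effector genes Gzma, Ccl5 and Ifng were among them. Of 5 cytotoxic effectors 1, Gzma, was over 2-fold lower, with a median log2 ratio of -0.02 against 0.08 over all 591 genes, and of 3 cytokines and chemokines 1, Ccl5, was over 2-fold lower and 1, Ifng, over 2-fold higher. The log2 ratio of KO over WT was -4.58 for Gzma (95% interval -5.59 to -3.73, exact binomial) and -2.90 for Ccl5 (-3.32 to -2.50). For Ifng it was 1.53 (1.08 to 1.98). These genes also differed between CD8-type and CD4-type cells, whose shares differed between the libraries. Within CD8-type cells Gzma stood at 5297 CPM in WT early and 575 in KO early, Ccl5 at 6268 and 1323, and Ifng at 183 and 345. Within CD4-type cells Ifng stood at 1147 CPM in WT early and 1642 in KO early. The KO early values within CD8-type cells rested on 8 cells.

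Other genes high in KO early T cells were also higher in other cells of that library. By ratio the 5 leading genes were Dbi, a lipid-binding protein (1.84), Ifitm2 (1.72), Ifng (1.53), Anxa2 (1.38) and Lgals1 (1.37). Dbi stood at 844 CPM in KO and 236 in WT T cells, at 725 and 247 in cells high in Lyz2 and C1qa, and at 5809 and 2626 in tumour cells. The study singled out 17 genes for this comparison on these same samples, so their direction in T cells is not independent evidence. All 17 were higher in KO early T cells, with a median log2 ratio of 1.34. In cells high in Lyz2 and C1qa 16 of the 17 were higher in KO early, with a median of 1.06, and in tumour cells 17 of 17, with a median of 0.97. Ifng, at 983 CPM in KO early and 339.5 in WT early T cells, was low in the other cells. In cells high in Lyz2 and C1qa it gave 2 UMIs in KO early against 0 in WT early. In tumour cells it gave 52 against 1 (14.1 and 0.353 CPM). These tumour cells included barcodes with 2 or more of the receptor genes of the rule, 10 in KO early and 3 in WT early. The part of such barcodes in the Ifng counts was not tested. Xist, the noncoding RNA of the inactive X chromosome, gave 181 UMIs in T cells of the WT female and 0 in those of the KO male, at least 16.6-fold lower against a limit of 3 UMIs over the summed T cells. Gm42418, with a log2 ratio of -3.90 in T cells, was also low in cells high in Lyz2 and C1qa of KO early (-3.36).

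**Figure D5:**
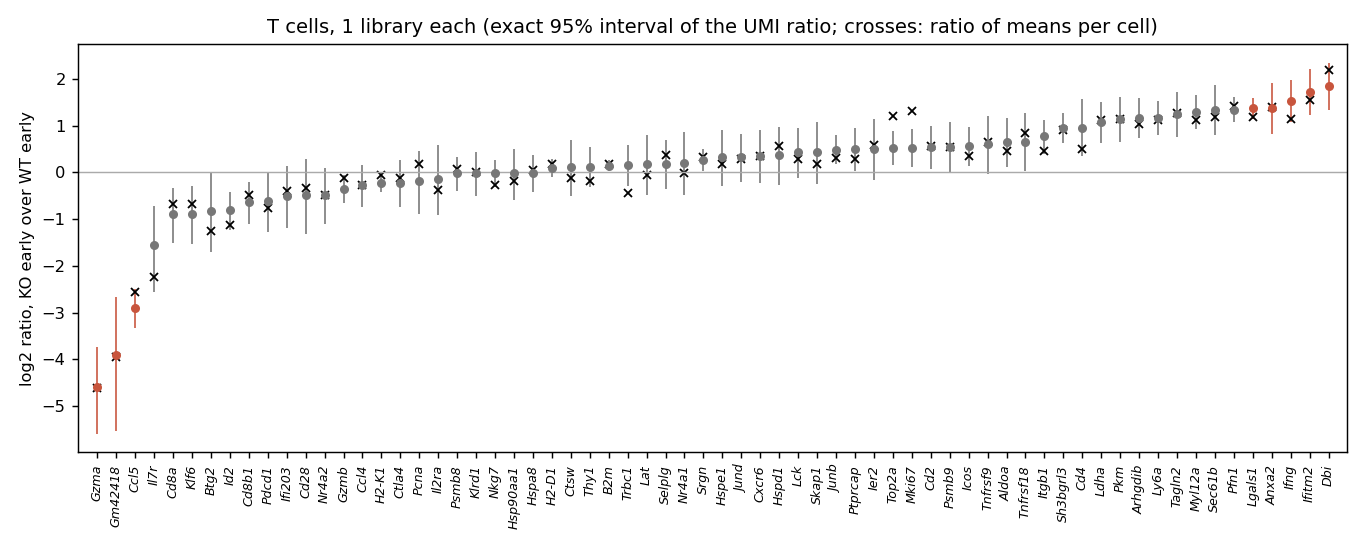
Log2 ratio of CPM in T cells of KO early over WT early, with exact 95% binomial intervals, for the listed genes of 100 or more UMIs (grey) and those of the largest ratios each way (red), and crosses for the ratio of means per cell. Xist, at 0 UMIs in KO early, is not drawn. Gzma (-4.58) and Ccl5 (-2.90) lie far below 0, and Dbi (1.84), Ifitm2 (1.72) and Ifng (1.53) above it.

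Over all libraries with at least 5 T cells, the 3 KO libraries were compared with WT early by edgeR's quasi-likelihood test. The stage could not be fitted as a block, since 4 sums leave 0 residual degrees of freedom, so that genotype, stage and mouse cannot be told apart. The WT arm is 1 library, assumed to vary like the KO libraries. Of 5873 genes tested 0 passed in either direction (0%), with 361 at an unadjusted p under 0.05, and DESeq2 called 6. Ccl5 and the mitochondrial rRNA mt-Rnr1 came nearest. Ccl5 gave a log2 fold change of -2.53 ± 0.34 (SE, adjusted p = 0.0644 by edgeR with Benjamini-Hochberg adjustment), and mt-Rnr1 gave -2.28 (0.32, adjusted p = 0.0644). Ccl5 was lower in 3 of 3 KO libraries. The mitochondrial rRNA mt-Rnr2 was likewise highest in other cells of WT early, at 60174, 15859, 24082 and 11362 CPM in T cells and 58554, 8022, 37017 and 11832 CPM in cells high in Lyz2 and C1qa of WT early, KO early, KO intermediate and KO late. Gzma gave -2.34 (adjusted p = 0.804 by edgeR). Without the 4 barcodes with endothelial or oligodendrocyte transcripts, an alternative added after the data were seen, 31 genes passed, 16 higher and 15 lower in KO, among them Ccl5.

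Late T cells, in KO late alone, were compared with those of both early libraries. The late arm is 1 library, assumed to vary like the early ones, and is KO only while the early arm holds both genotypes. Of 5873 genes 12 were higher (0.204%) and 10 were lower (0.170%), and DESeq2 called 0. With genotype as a covariate, which needed sums of at least 1 cell and so the 2 T cells of WT late, edgeR called 0 genes, with 50 at an unadjusted p under 0.05. Among chemokines and cytokines, 3 passed as lower, Ccl4 (log2 fold change -2.23 ± 0.53 SE, adjusted p = 0.00973 by edgeR with Benjamini-Hochberg adjustment), Ccl5 (-1.79) and Csf2. These were 3 of 10 cytokine and chemokine genes tested, with a median of -1.48 against -0.02 over all genes. Ccl4 stood at 793 CPM in WT early and 655 in KO early, and at 168 in KO late. KO intermediate stood at 171 CPM, and at 280.2 CPM (exact 95% Poisson interval 209.9 to 366) without its endothelial barcodes. Ccl5 in KO late (939.6 CPM) lay between WT early and KO early, so that its groups overlapped. Gzmf, a granzyme, rose, with 34 UMIs in 3 cells of KO late. The other rises included the MHC class II genes H2-Aa (3.07), H2-Eb1 (2.66), H2-Ab1 (2.29) and Cd74 (2.71), and Spp1 and Il1b, which are genes of antigen-presenting and myeloid cells. H2-Aa was found in 16 of the 37 T cells of KO late, against 4 of 93 in WT early and 4 of 31 in KO early. The tumour cell markers were highest in T cells of KO late, at 383 CPM. The 7 microglia and macrophage markers were not, at 268 CPM in KO late against 326 in WT early and 428 in KO early. Without the barcodes with endothelial or oligodendrocyte transcripts, Cd74 stood at 83.8 CPM in WT early and 113 in KO early. It stood at 459.9 CPM in KO intermediate and 651 in KO late. The part of transcripts of other cells in the rises of KO late was not tested. None of the 22 genes passed in every alternative.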

How the data were processed

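Single cells of 6 GL261 tumours and 2 naive brain samples were measured by Drop-seq. The authors deposited UMI counts per gene and barcode, not normalized, with 3000 barcodes per tumour-bearing table. The submitters' processing notes name bcl2fastq 2.0, STAR and GRCm38/mm10, and the STAR version is not given in the sources used here. Groups were taken from the labels. The members and gene lists were chosen with earlier results of these data known.

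T cells were chosen by the rule given in the report. UMIs were summed per library and class, with at least 5 cells per sum, because cells of 1 library are not replicates. Sums were tested with edgeR 4.0.16 (filterByExpr, TMM scaling, quasi-likelihood test) in R 4.3.3 at a Benjamini-Hochberg adjusted p of 0.05. The planned stage block left 0 residual degrees of freedom in the comparisons of genotype and stage, which were fitted without it. CD8-type cells, CD4-type cells and the CD3-negative cells with NK genes were compared with the library as a block. With 1 library per genotype and stage, the spread between libraries includes differences between mice. Sums held between 14416 and 309568 UMIs. CPM in the text is per 1000000 UMIs of the summed cells, and scaled CPM also carries the TMM factor. Shares have exact binomial intervals, levels exact Poisson intervals, ratios of 1 library over 1 library exact binomial intervals, and shares were compared by exact permutation over libraries (scipy 1.17.1). On simulated counts with 200 changed genes the test called 64.5% for genotype, 47.5% for stage, 87.5% for CD8-type against CD4-type and 72% for T cells against CD3-negative cells. It also called 13, 4, 6 and 5 unchanged genes in that order. The simulation gave every gene the same dispersion and every library the same profile apart from the changes. These percentages are therefore not the power in the real data.

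Named genes were those of the lists and, for each test, up to 10 called genes per direction, taken by size of change where each library or pair showed the same sign, or the 5 smallest p where none passed. For 1 library against 1 library they were the 5 largest ratios each way at 100 or more UMIs, and for the description the 20 largest ratios at 200 or more UMIs in T cells. Genes that passed without the same sign in each pair, such as Ccl5 in the late comparison, were named from the lists. Some genes that these rules would name are not reported here. Oligodendrocyte-marker cells and cells high in Lyz2 and C1qa served as background. No doublets were removed. Alternatives were DESeq2 1.42.0, no filter on low counts, no TMM scaling, other cell and gene minimums, other limits of the rule, Scrublet doublet removal (scanpy 1.11.5, or the highest 5% of scores where under 0.5% were marked), each library left out, and, added after the data were seen, removal of barcodes with 20 or more endothelial and oligodendrocyte UMIs and thinning to 1000 UMIs per cell. Promoters are from RefSeq (GRCm38.p6) and gene positions from GENCODE M21.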

Additional observations from a re-analysis of the deposited data

Results flagged for a closer look

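The difference in the share of T cells between genotypes did not run the same way at every stage. KO minus WT was -3.84 percentage points at the early stage, 10.7 at the intermediate stage and 8.49 at the late stage, as a share of the cells without the tumour gene signal. The difference between stages was not tested, since each value compares 1 library with 1 library. The WT intermediate value rests on 79 cells without the tumour signal.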

How the results depend on the processing

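The T cell share was higher in KO on average in every alternative tried, between 4.44 and 6.61 percentage points under other limits of the rule, and 9.59, 2.33 and 3.42 without the early, intermediate and late stage, without passing the exact permutation test. The difference in the share of Foxp3-positive cells reversed to -0.118 percentage points at 1000 UMIs per cell. For KO against WT, 0 genes passed, while DESeq2 called 6, no filter on low counts 100, sums of at least 1 cell 1, a minimum of 1000 genes per cell 2, a Lyz2 and C1qa limit of 10 per 10000 2, removal of barcodes with endothelial and oligodendrocyte transcripts 31, thinning to 1000 UMIs 7, and leaving out 1 library 31 to 156, with 156 without KO early, 74 without KO intermediate and 31 without KO late. For late against early, 22 genes passed, but 0 under DESeq2, 0 without a filter, 6 with sums of at least 1 cell, 0 with genotype as a covariate in those sums and 9 after thinning. For CD8-type against CD4-type cells, 25 genes passed, against 15 under DESeq2, 7 with sums of at least 10 cells, 10 without the library block, 9 after thinning and 8 to 33 with 1 library left out (12 without WT early, 8 without KO intermediate, 15 without KO late). Gzma, Tnfrsf4, Neb and Serpine2 passed in every alternative that gave a value. For T cells against CD3-negative cells with NK genes, 22 genes passed, against 80 without a filter, 10 with sums of at least 1 cell, 67 when at least 3 NK genes were asked for, 7 after thinning and 14 to 34 with 1 library left out (34 without KO intermediate, 14 without KO late). Fcer1g, Klra13-ps, Klra4, Tyrobp and Xcl1 passed in every alternative that gave a value. The cause of these changes was not tested. A minimum of 1000 genes per cell could not be fitted for the last comparison. The permutation test of the T cell share did not pair the KO and WT libraries of a stage. Gene levels could not be paired by stage, since the later WT libraries held too few T cells. The comparisons of cell classes within libraries had the library as a block.

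With 2 T cells in WT late and 0 in WT intermediate, the WT side of every comparison of T cells rests on 1 mouse, and differences of genotype, stage, sex and mouse cannot be told apart. Rare transcripts such as Foxp3, Cd4 and Trdc depend on the depth of a cell, which limits the shares of cells that carry them. The rule asks for receptor transcripts and a low tumour signal, so T cells of low depth and T cells with tumour RNA in the droplet were left out.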

Other observations

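Interferon-induced genes were present in the T cells at levels that did not separate the libraries by a test. Gbp2, a GTPase induced by interferon gamma, stood at 100.5 CPM in WT early, 265 in KO early, 407 in KO intermediate and 376 in KO late. Without the 2 endothelial barcodes KO intermediate fell to 95.2 CPM (exact 95% Poisson interval 56.4 to 150.4). In the comparison of KO with WT early 0 of 14 genes induced by interferon gamma and 0 of 14 type I interferon-stimulated genes passed, with medians of 0.53 and 0.49 against 0.06 over all genes tested.

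Residency genes were uneven. Itgae, the integrin chain CD103 of tissue-resident T cells, was detected in 22 of 93 T cells of WT early and in 1, 5 and 3 cells of KO early, KO intermediate and KO late. Its log2 fold change of KO against WT was -2.70 (standard error 0.57, adjusted p = 0.370 by edgeR), and it passed without the barcodes with endothelial or oligodendrocyte transcripts, an alternative added after the data were seen. Klf2, a transcription factor of resting T cells, gave 254 UMIs in KO intermediate but 13 without its 2 endothelial barcodes, against 17, 11 and 15 in WT early, KO early and KO late. Xist was detected in 60 of 93 T cells of WT early and 35 of 42 of KO intermediate, the libraries of female mice, and in 0 T cells of the other tumour-bearing libraries.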
